A study of Mus musculus with 10 samples.

Results

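The oligoadenylate synthetase (Oas) family was examined as 8 of the 60676 genes and loci in the deposited count matrix: Oas1a, Oas1b, Oas1c, Oas1g, Oas2, Oas3, Oasl1 and Oasl2. They are the entries whose Ensembl identifier matched these symbols. The list leaves out 4 further Oas1 copies, which are described separately. RNA was sequenced from 2 mouse tumour cell lines, MC38 from a colon adenocarcinoma and B16 from a melanoma, as 5 groups of 2 libraries. All 10 libraries came from cells that carried a knockdown of Sdc1 (syndecan-1, a heparan sulphate proteoglycan of the cell surface) and were stimulated with IFNγ (interferon gamma) at 10 ng/ml, with a treatment time of 24 h. In MC38 the groups were the knockdown alone, the knockdown with the c30 mutant of Sdc1 and the knockdown with the ect mutant. In B16, 1 group had the knockdown alone, and the other also had wild-type Sdc1. The hairpin and vector, what the c30 and ect mutations alter, and whether a line was 1 clone are not given in the sources used here. No group without the knockdown or without IFNγ was analysed here, so an induction by IFNγ could not be measured. Separate cultures are not mentioned for the 2 libraries of a group. The p-values therefore reflect only how much these libraries varied, which may be technical.

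Oas proteins are part of the innate defence against RNA viruses. Oas1a, Oas1g, Oas2 and Oas3 are enzymes that, on binding double-stranded RNA, join ATP into short chains of adenylates linked from the 2′ to the 5′ position, called 2-5A. These chains act as a messenger of infection inside the cell. Oas1b of common laboratory mice is a truncated form of a flavivirus resistance gene. Oasl1 and Oasl2 carry ubiquitin-like domains, and Oasl1 is known as a repressor of Irf7 translation. The genes are classical targets of type I interferon through the factor ISGF3, which contains Stat2 and Irf9 and binds the interferon-stimulated response element (ISRE), and IFNγ acts on many of the same targets, in part through Irf1.

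All 8 genes lie on chromosome 5, as do the other Oas1 copies. Stretches before the transcription start are shown because 4 of the 6 members in the promoter table (RefSeq, build GRCm38.p6) held the ISRE core, spelled GAAA, any 2 bases, GAAA, searched on both strands from 250 bases before to 50 bases after the start. The same core was found in 3.44% of the 32851 windows of that table. Oas2 and Oas1b have no window of their own there, and the Oas1b stretch comes from the window of Oas1c, which starts 120 bases away on the opposite strand. Each stretch reads 5′ to 3′ in the direction of the named gene and ends at the last base before its start. Capitals mark the ISRE cores and, in Oas1a alone, the gamma-activated site TTCNNNGAA (GAS), which was in 8.30% of all windows.
Oas1a, chr5:120907526-120907625, minus strand: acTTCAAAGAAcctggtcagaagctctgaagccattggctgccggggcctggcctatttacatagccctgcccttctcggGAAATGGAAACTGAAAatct
Oas1g, chr5:120887614-120887713, minus strand: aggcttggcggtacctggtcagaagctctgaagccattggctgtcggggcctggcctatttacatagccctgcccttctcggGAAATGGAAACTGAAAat
Oas1b, chr5:120812515-120812634, plus strand: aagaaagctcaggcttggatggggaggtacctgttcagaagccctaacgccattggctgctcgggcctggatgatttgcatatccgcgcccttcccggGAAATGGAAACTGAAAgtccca
Oas3, chr5:120777660-120777759, minus strand: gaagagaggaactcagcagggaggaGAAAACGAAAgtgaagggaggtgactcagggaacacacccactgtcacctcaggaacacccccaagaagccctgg
In Oas1a, Oas1g and Oas1b the same 16 letters formed 2 overlapping ISRE cores just before the start, from -20 to -5, from -18 to -3 and from -22 to -7. Oas3 held 1 core, from -75 to -66. No core was found in the windows of Oasl1 and Oasl2, which says only that these letters are not in those windows.

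The 10 libraries held between 11349447 and 15041133 counts, so that 3 counts, taken as the floor for a gene at 0, equalled 0.199 to 0.264 CPM (counts scaled to a common library total). Sdc1 itself was at 24.5 and 29.99 CPM in the MC38 knockdown, 97.0 and 99.5 CPM with c30, 22.4 and 25.2 CPM with ect, 40.7 and 43.1 CPM in the B16 knockdown and 71.1 and 56.9 CPM with wild type. The ect libraries thus held no more Sdc1 than the knockdown, and whether the ect transcript was counted as Sdc1 was not tested. The 7 melanocyte markers summed to between 13499 and 14271 CPM in B16 and 6.33 to 12.9 CPM in MC38. Replicate 2 of c30 held 28 Dct and 31 Tyrp1 counts against at most 4 and 7 in the other MC38 libraries. The 8 leukocyte markers were under 1 CPM in every library. Of the 8 epithelial markers, 1 to 2 reached 1 CPM in an MC38 library, so that most defining markers of epithelium were at or near 0 in this colon line. The 6 stromal markers summed to between 468 and 488 CPM in the MC38 knockdown and between 299 and 314 CPM in the c30 and ect libraries, and the part of this difference in the results was not tested.

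The family was a minor transcript group in MC38 and a larger one in B16. Levels of different genes are compared per length, as CPM per kb of merged exon. The summed level of the 8 genes was 24.4 and 25.4 CPM per kb in the MC38 knockdown, 15.6 and 15.6 with c30, 18.9 and 19.4 with ect, 150 and 144 in the B16 knockdown and 127 and 126 with wild-type Sdc1. The groups did not overlap in this sum, which was lowest with c30. In bulk RNA a lower level in all cells and fewer expressing cells cannot be told apart.

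The makeup of the family differed between the lines. In MC38, Oasl2 gave the largest share of the summed level per kb, from 26.6% to 31.2%, while Oas1b gave 19.0% to 23.4%, Oas3 gave 19.6% to 22.1% and Oas1a gave 14.1% to 19.7%. The ranges of Oas1b and Oas3 overlapped. In B16, Oas1a led with 32.1% to 36.8%, and Oasl2 gave 23.0% to 26.1%. Oas2 and Oas1g, at most 2.21% and 4.68% in an MC38 library, each gave about as much as Oas1b in B16, with 11.97% to 13.1% and 9.98% to 12.2%. Oas3 gave 1.73% to 2.38% there. All 6 MC38 libraries lay apart from all 4 B16 libraries in the shares of Oas1a, Oas1b, Oas1c, Oas1g, Oas2, Oas3 and Oasl2. The shares of Oasl1 overlapped. Shares of a sum depend on each other, since a larger share of some genes lowers that of the others. Oas1c stood apart in share, while its level overlapped between the lines (0.793 to 3.77 CPM in MC38, 2.52 to 4.59 CPM in B16). In level, both B16 knockdown libraries lay above both MC38 knockdown libraries in 40% of all genes and below in 44.4%. These figures cover levels in the knockdown libraries only and are no background for the shares. No matching count was made for shares, so whether the separation in shares was unusual was not tested.

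**Figure D1:**
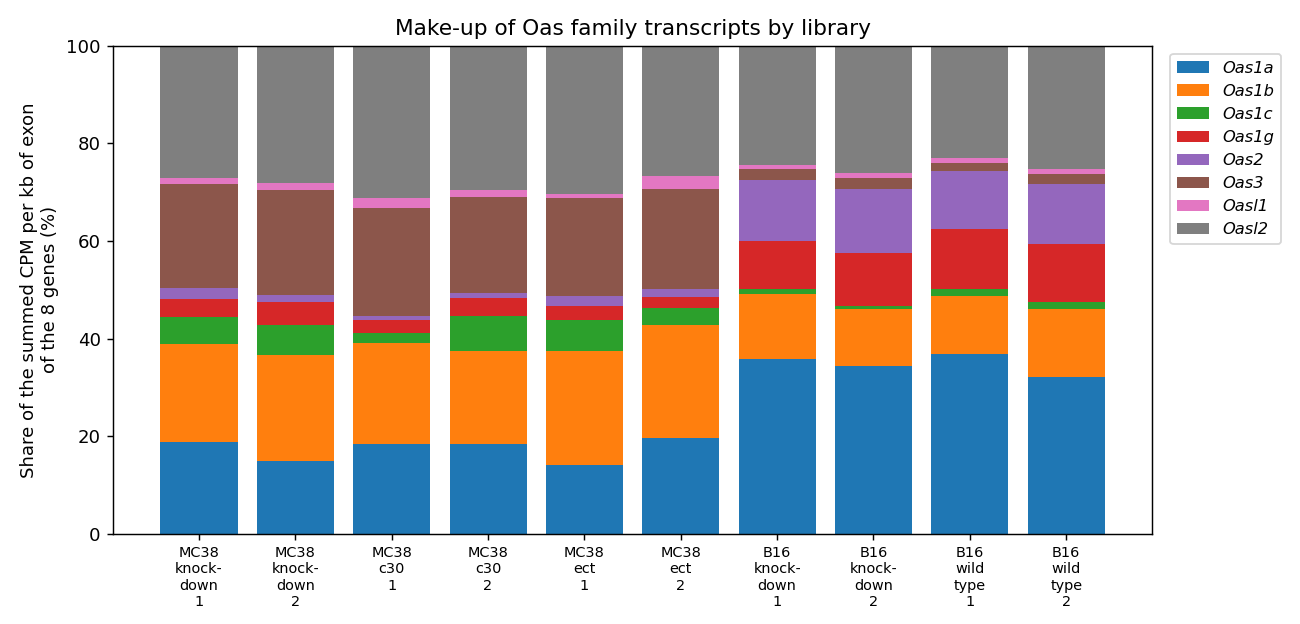
Share of the summed Oas family level (CPM per kb of merged exon, in percent) that each of the 8 genes gave, 1 stacked bar for each of the 10 libraries. Oasl2, Oas1b, Oas3 and Oas1a filled most of each MC38 bar, whereas Oas1a (32.1% to 36.8%) was the largest part of each B16 bar, in which Oas3 gave at most 2.38%.

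Oas1a and Oas1g cannot be fully separated in these counts. Of the distinct 50-base stretches of the annotated transcripts, 57.6% in Oas1a and 45.7% in Oas1g also occur in another Oas gene, nearly all of them shared between these 2 genes. The way reads with several matches were counted was not stated in the sources at hand. Their values are therefore uncertain as a split, and also in level, since both would be too low if such reads were left out. The sum of the family, the shares in it and the lead of Oas1a in B16 depend on this too. The same holds in part for Oas1c with 9.82%. For Oas1b the share was 1.17%, and for Oas2, Oas3, Oasl1 and Oasl2 it was 0. Gm43069 overlaps Oas1c on the opposite strand, as Gm43068 does Oas2, and without a known strand setting their reads cannot be told apart from those of the Oas gene.

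The first question was whether the mutant forms of Sdc1 went with another Oas level in MC38. With c30, 4 of the 8 genes were called lower than in the knockdown (edgeR quasi-likelihood test, adjusted p under 0.05), and none was called higher. Among all 15031 genes tested, 4.45% were called lower and 3.3% higher. The 4 genes were Oas3, Oasl2, Oas1b and Oas2. All 8 estimates were negative with a median log2 fold change of -0.73, against a median of 0.0013 over all genes. In 7 of the 8 genes both c30 libraries lay below both knockdown libraries, a pattern that 24.8% of all genes had.

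**Figure D2:**
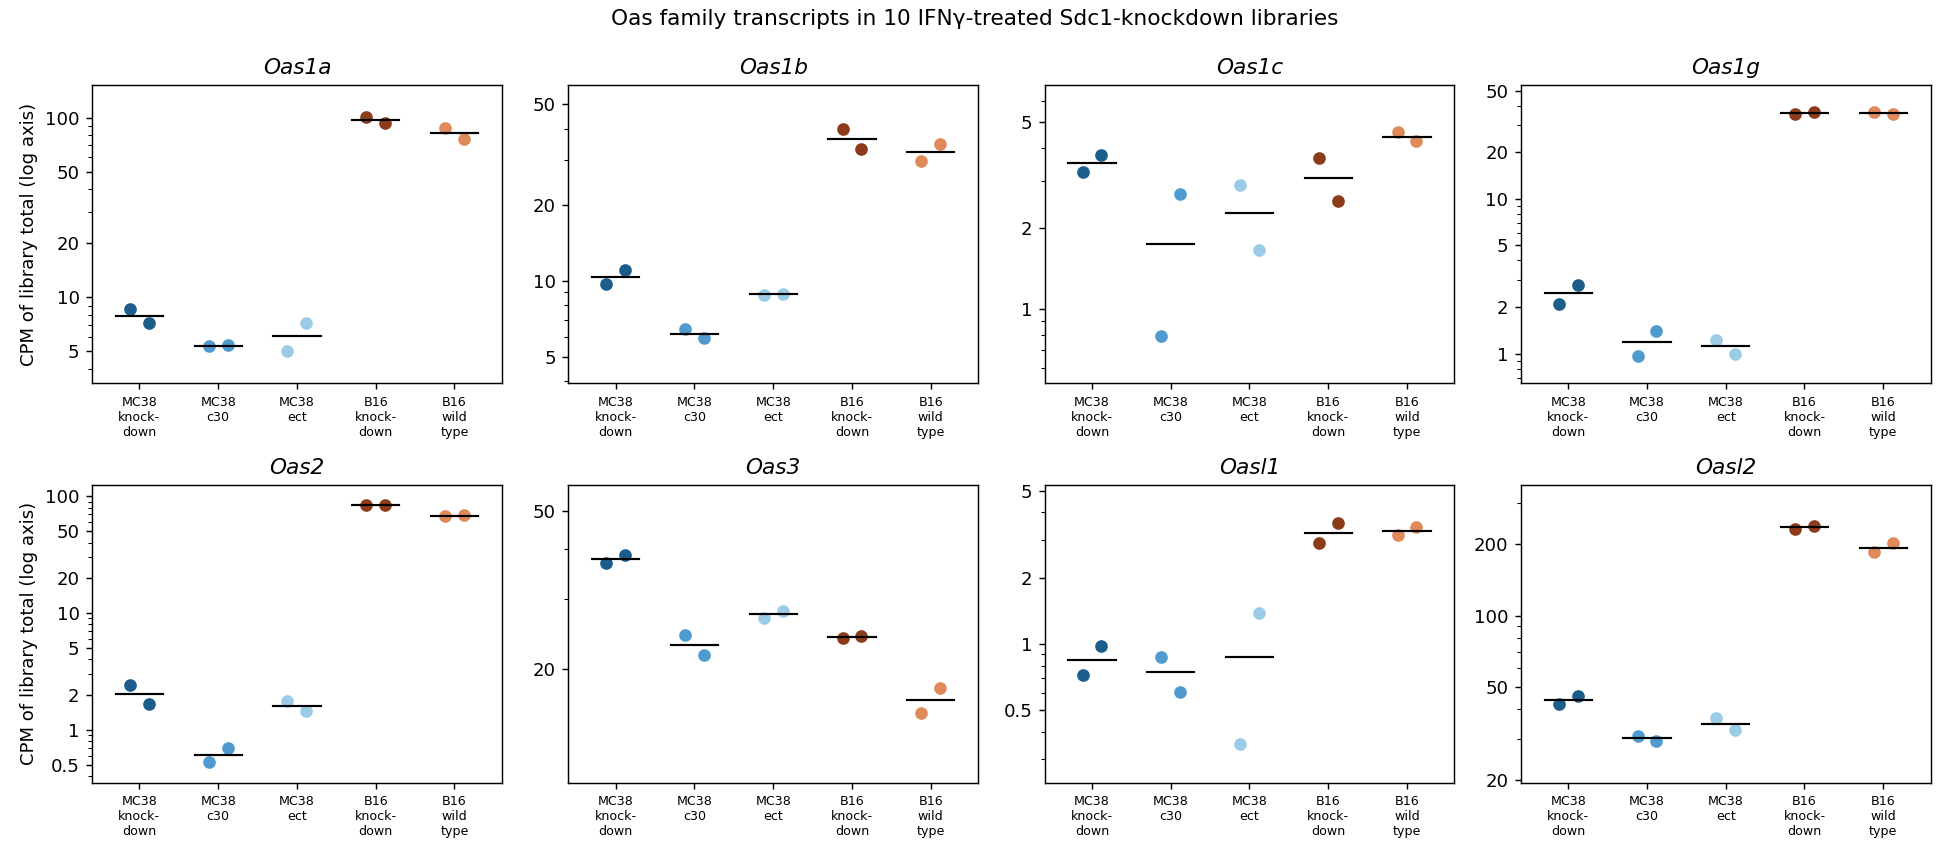
Level of each Oas gene in each of the 10 libraries (CPM on a log axis, 1 panel per gene, 1 point per library, groups along the horizontal axis). The B16 points lie above all MC38 points for Oas1a, Oas1b, Oas1g, Oas2, Oasl1 and Oasl2, while the highest points of Oas3 are the MC38 knockdown libraries at 36.9 and 38.7 CPM.

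Oas3, the largest of the enzymes, was at 36.9 and 38.7 CPM in the MC38 knockdown, 24.3 and 21.7 CPM with c30 and 26.9 and 27.9 CPM with ect. Both mutant groups lay below the knockdown, and ect lay above c30. Oas3 fell by 0.71 (SE 0.11) on the log2 scale with c30, a 1.64-fold lower level (edgeR, adjusted p = 4.2e-07). It fell by 0.45 (SE 0.10) with ect, or 1.37-fold (edgeR, adjusted p = 0.00106). Both calls were made in all 13 alternative settings. The c30 and ect comparisons share the knockdown libraries and are not independent of each other.

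Oasl2, an Oas-like protein with ubiquitin-like domains, was the most abundant member in MC38 per kb. It was at 42.0 and 45.4 CPM in the knockdown, 30.9 and 29.3 CPM with c30 and 36.6 and 32.8 CPM with ect. The 3 groups did not overlap and had the same order as for Oas3. The level fell by 0.53 (SE 0.10) on the log2 scale with c30, or 1.45-fold (edgeR, adjusted p = 4.8e-05), in all 13 alternative settings. With ect it fell by 0.33 (SE 0.09), or 1.25-fold (edgeR, adjusted p = 0.0165). This call was lost in 4 of 13 settings, with edgeR adjusted p = 0.299 without replicate 2 of ect and 0.178 without replicate 2 of the knockdown.

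Oas1b was at 9.73 and 11.002 CPM in the knockdown, 6.43 and 5.92 CPM with c30 and 8.78 and 8.91 CPM with ect. Again the 3 groups stood apart, with ect between the others. Oas1b fell by 0.74 (SE 0.19) with c30, or 1.67-fold (edgeR, adjusted p = 0.00544), and the log2 difference with ect was -0.22 (SE 0.18; edgeR, adjusted p = 0.537). The c30 call was made in 10 of 13 alternative settings. It was lost in DESeq2, without replicate 2 of c30 and without replicate 2 of the knockdown. Without replicate 2 of c30 the log2 difference was -0.70 (edgeR, adjusted p = 0.0915), and without replicate 2 of the knockdown it was -0.65 (edgeR, adjusted p = 0.0889).

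Oas2, the middle-sized enzyme, was scarce in MC38. Its counts were 33 and 22 in the knockdown, 6 and 8 with c30 and 20 and 22 with ect, or 2.40 and 1.66, 0.529 and 0.696, and 1.76 and 1.46 CPM. The c30 libraries lay below the other 4, and ect overlapped the knockdown. Oas2 fell by 1.71 (SE 0.52) on the log2 scale with c30, or 3.26-fold (edgeR, adjusted p = 0.0273), and the difference with ect was -0.33 (SE 0.44; edgeR, adjusted p = 0.740). The c30 call was lost in 3 of the 4 fits without a single library: edgeR gave an adjusted p of 0.197 without replicate 1 of c30, 0.0975 without replicate 2 and 0.249 without replicate 1 of the knockdown. Without replicate 2 of the knockdown it was 0.0381 (edgeR). The log2 difference over these fits lay between -1.42 and -1.95. The call was also lost in limma-voom (adjusted p = 0.0606).

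The 2 closely alike enzymes Oas1a and Oas1g did not pass the test in MC38. Oas1a was at 8.64 and 7.16 CPM in the knockdown, 5.37 and 5.40 CPM with c30 and 5.01 and 7.18 CPM with ect. Oas1g was at 2.11 and 2.79 CPM in the knockdown, 0.969 and 1.39 CPM with c30 and 1.23 and 0.997 CPM with ect. For Oas1a the c30 libraries lay below the knockdown and ect overlapped it, and for Oas1g both mutant groups lay below the knockdown. The log2 differences with c30 were -0.55 (SE 0.22; edgeR, adjusted p = 0.114) for Oas1a and -1.04 (SE 0.45; edgeR, adjusted p = 0.160) for Oas1g. With ect they were -0.35 (SE 0.21; edgeR, adjusted p = 0.360) and -1.13 (SE 0.45; edgeR, adjusted p = 0.112).

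The remaining members were at the low end. Oas1c, a copy known for expression in the ovary, had 45 and 50 counts in the knockdown, 9 and 31 with c30 and 33 and 25 with ect. All 4 mutant libraries lay below the knockdown, but the c30 libraries differed widely from each other. The log2 difference with c30 was -0.995 (SE 0.38; edgeR, adjusted p = 0.0958), and it passed only without replicate 2 of c30 (-2.15; edgeR, adjusted p = 0.0105). With ect it was -0.64 (SE 0.36; edgeR, adjusted p = 0.309). Oasl1 had 10 and 13 counts in the knockdown, 10 and 7 with c30 and 4 and 21 with ect, with overlap between all groups. Its log2 differences were -0.19 (SE 0.63; edgeR, adjusted p = 0.917) with c30 and 0.12 (SE 0.59; edgeR, adjusted p = 0.944) with ect.

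With ect, then, 2 of the 8 genes, Oas3 and Oasl2, were called lower and none higher, where 4.61% of the 15031 genes were called lower and 3.55% higher (edgeR). The median log2 fold change was -0.34 against 0.0016 over all genes, and in 5 of the 8 both ect libraries lay below both knockdown libraries, as in 25.9% of all genes. Between c30 and ect directly, edgeR called 0 members, as it called 0.299% of all genes in either direction. An unadjusted p under 0.05 (edgeR) was reached by 4 members and by 1310 of the 15031 genes. Limma-voom also called 0 members, and so did DESeq2, which gave an adjusted p only for Oas3 and Oasl2 here. The largest difference was that of Oas2, with a log2 value of -1.38 (SE 0.54) for c30 against ect (edgeR, adjusted p = 0.374). The c30 libraries lay below both ect libraries in 4 members, Oas1b, Oas2, Oas3 and Oasl2, against 17.3% of all genes. A p that misses the threshold does not show that both forms went with the same level.

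**Figure D3:**
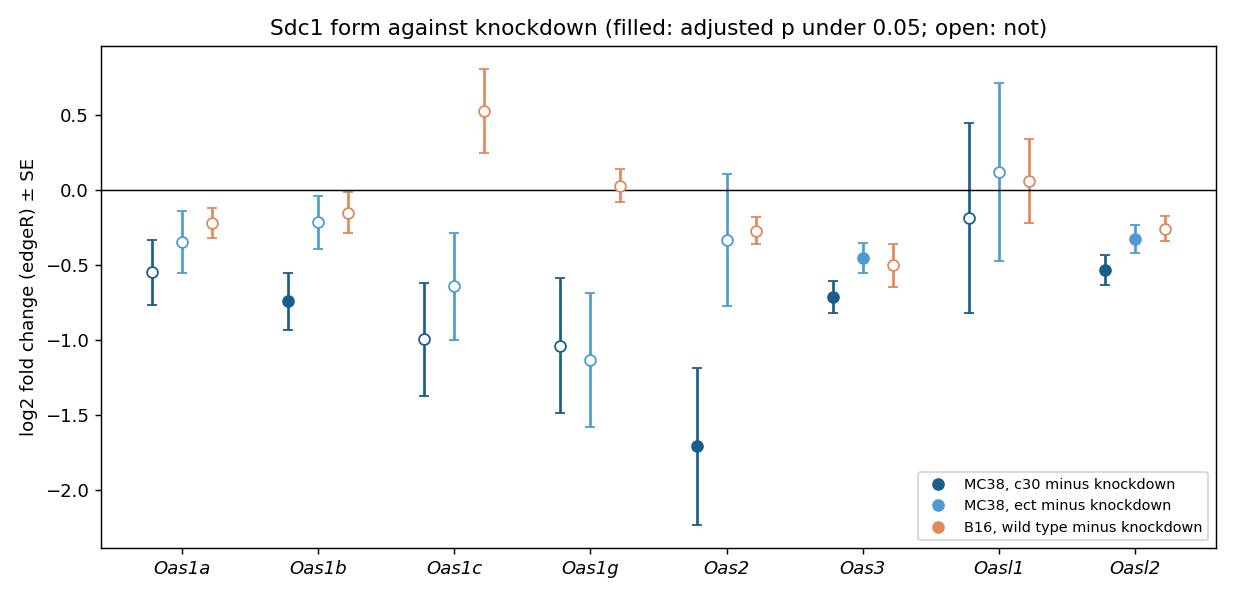
Log2 fold change of each Oas gene (points, with bars of 1 standard error, from edgeR) for c30 and ect against the MC38 knockdown and for wild type against the B16 knockdown. With c30 all 8 points lie below 0, from -0.19 for Oasl1 to -1.71 for Oas2, and the bars of Oasl1 cross 0 in each comparison.

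In B16, wild-type Sdc1 was compared with the knockdown alone. None of the 8 genes passed the test, as none of the 14336 genes tested did (0% called; edgeR). Sdc1 itself was among the genes not called, at a log2 difference of 0.64 (edgeR, adjusted p = 0.269). DESeq2 called 0 members and 11 genes in all, and limma-voom called 0 of each. An unadjusted p under 0.05 was reached in edgeR by 3 members and by 791 of the 14336 genes. Both wild-type libraries lay below both knockdown libraries in 4 members, as in 21.1% of all genes, and above them in 1, as in 13.9%. The 4 were Oas1a, Oas2, Oas3 and Oasl2, and the 1 was Oas1c.

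The values of these genes were as follows. Oas3 was at 24.0 and 24.2 CPM in the B16 knockdown and 15.5 and 17.9 CPM with wild type, a log2 difference of -0.50 (SE 0.14; edgeR, adjusted p = 0.788). Oas2 was at 83.7 and 83.6 CPM against 67.5 and 68.7 CPM (-0.27, SE 0.09; edgeR, adjusted p = 0.877). The wild-type libraries of both genes lay below the knockdown. Oasl2 was at 234 and 239 CPM against 186 and 203 CPM (-0.26, SE 0.08; edgeR, adjusted p = 0.877). Oas1a was at 101 and 93.0 CPM against 87.9 and 76.2 CPM (-0.22, SE 0.10; edgeR, adjusted p = 0.891). In each of the 4 genes the knockdown libraries were both higher. Oas1c, with counts of 48 and 29 against 58 and 53, was the one member whose wild-type libraries were both higher (0.53, SE 0.28; edgeR, adjusted p = 0.901).

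Oas1b, Oas1g and Oasl1 overlapped between the B16 groups. Oas1b was at 39.8 and 33.4 CPM in the knockdown and 29.9 and 35.0 CPM with wild type. Oas1g was at 35.1 and 36.2 CPM and at 36.3 and 35.1 CPM, and Oasl1 was at 2.90 and 3.57 CPM and at 3.17 and 3.43 CPM. Their log2 differences were -0.15, 0.03 and 0.06.

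The B16 result rested on the wild-type libraries, whose replicates differed most. The median absolute log2 difference between replicates over genes was 0.161 in that group and 0.081 to 0.088 in the other 4. Without replicate 1 of wild type, edgeR called 2 members lower, Oas1a (-0.32, adjusted p = 0.00451) and Oasl2 (-0.19, adjusted p = 0.0307), among 1295 of 15073 genes in all. Without replicate 2 it called 326 of 15024 genes, with 3 members lower, namely Oas2 (-0.29, adjusted p = 0.0478), Oas3 (-0.62, adjusted p = 0.0105) and Oasl2 (-0.33, adjusted p = 3.1e-05). In these fits the lone wild-type library is assumed to vary like the knockdown.

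Whether the difference from the knockdown was itself unlike in the 2 lines was tested as an interaction, in which line and form of Sdc1 cannot be told apart. No member passed for B16 wild type against c30 (0.284% of 16877 genes called) or against ect (0.486%; edgeR). In edgeR, 5 members against c30 and 2 against ect had an unadjusted p under 0.05, beside 1748 and 1812 of the 16877 genes. DESeq2 and limma-voom also called 0 members in both, though DESeq2 gave no adjusted p for Oas1c and Oasl1. The largest values against c30 were those of Oas1c (1.52, SE 0.53; edgeR, adjusted p = 0.268) and Oas2 (1.44, SE 0.38; edgeR, adjusted p = 0.112). Without replicate 1 of B16 wild type, edgeR called 1096 of 18010 genes in this contrast, among them Oas2 (1.45), Oas1b (0.69) and Oasl2 (0.34). Without replicate 2 it called 375 of 18091 genes, with Oas2 (1.43) as the one member. Oas1g had the smallest p against ect (1.16, SE 0.33; edgeR, adjusted p = 0.139). It passed without replicate 1 of B16 wild type (1.14; edgeR, adjusted p = 0.0368), where 1170 of 18010 genes were called. The Oas3 libraries lay below their knockdown with c30, with ect and, without a call, with B16 wild type. The interaction value for Oas3 was 0.21 (SE 0.17) against c30 and -0.05 (SE 0.17) against ect.

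The second question was how the lines compared, in the knockdown alone. In B16, 6 of the 8 members were called higher than in MC38 and 1 was called lower, where 33.8% and 34.3% of the 16877 genes were called higher and lower (edgeR). Many genes differ between 2 lines of different origin, and line cannot be told apart from anything else that distinguishes these cultures. The median log2 difference of the members was 2.21, against -0.01 over all genes. In 6 members both B16 libraries lay above both MC38 libraries, as in 40% of all genes, and in 1 below, as in 44.4%.

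Oas2 differed most. From 2.40 and 1.66 CPM in the MC38 knockdown it stood at 83.7 and 83.6 CPM in the B16 knockdown, 42.1-fold higher (log2 5.40, SE 0.15; edgeR, adjusted p = 8.2e-22). Per kb this was 15.2 to 18.8 CPM in the B16 libraries against 0.119 to 0.538 in MC38. Oas1g, at 35.1 and 36.2 CPM, was 14.9-fold higher (log2 3.90, SE 0.18; edgeR, adjusted p = 3.7e-17). Oas1a, at 101 and 93.0 CPM, was 12.6-fold higher (log2 3.66, SE 0.13; edgeR, adjusted p = 2.1e-19). Given the sequence that Oas1a and Oas1g share, these folds are uncertain one by one.

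Oasl2 was 5.56-fold higher in B16 (log2 2.47, SE 0.08; edgeR, adjusted p = 9e-21). Oasl1, with 38 and 41 counts in the B16 knockdown, was 3.86-fold higher (log2 1.95, SE 0.44; edgeR, adjusted p = 0.00029), and Oas1b was 3.64-fold higher (log2 1.86, SE 0.14; edgeR, adjusted p = 3.8e-12). Oas1c, whose start lies 120 bases from that of Oas1b with the shared pair of ISRE cores between them, did not pass (log2 -0.13, SE 0.36; edgeR, adjusted p = 0.757).

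Oas3 went the other way. At 24.0 and 24.2 CPM in the B16 knockdown against 36.9 and 38.7 CPM in MC38 it was 1.53-fold lower (log2 -0.61, SE 0.11; edgeR, adjusted p = 3.5e-05). Ordered by mean CPM, its groups ran from the MC38 knockdown (37.8) through ect (27.4), the B16 knockdown (24.1) and c30 (23.0) to B16 wild type (16.7), and only the B16 knockdown and c30 overlapped. For Oas1a, Oas1b, Oas2 and Oasl2 the order was B16 knockdown, B16 wild type, MC38 knockdown, ect and c30. The neighbours that overlapped in it were the MC38 groups of Oas1a, the B16 groups of Oas1b, and the MC38 knockdown and ect for Oas2. All 5 groups of Oasl2 stood apart.

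**Figure D4:**
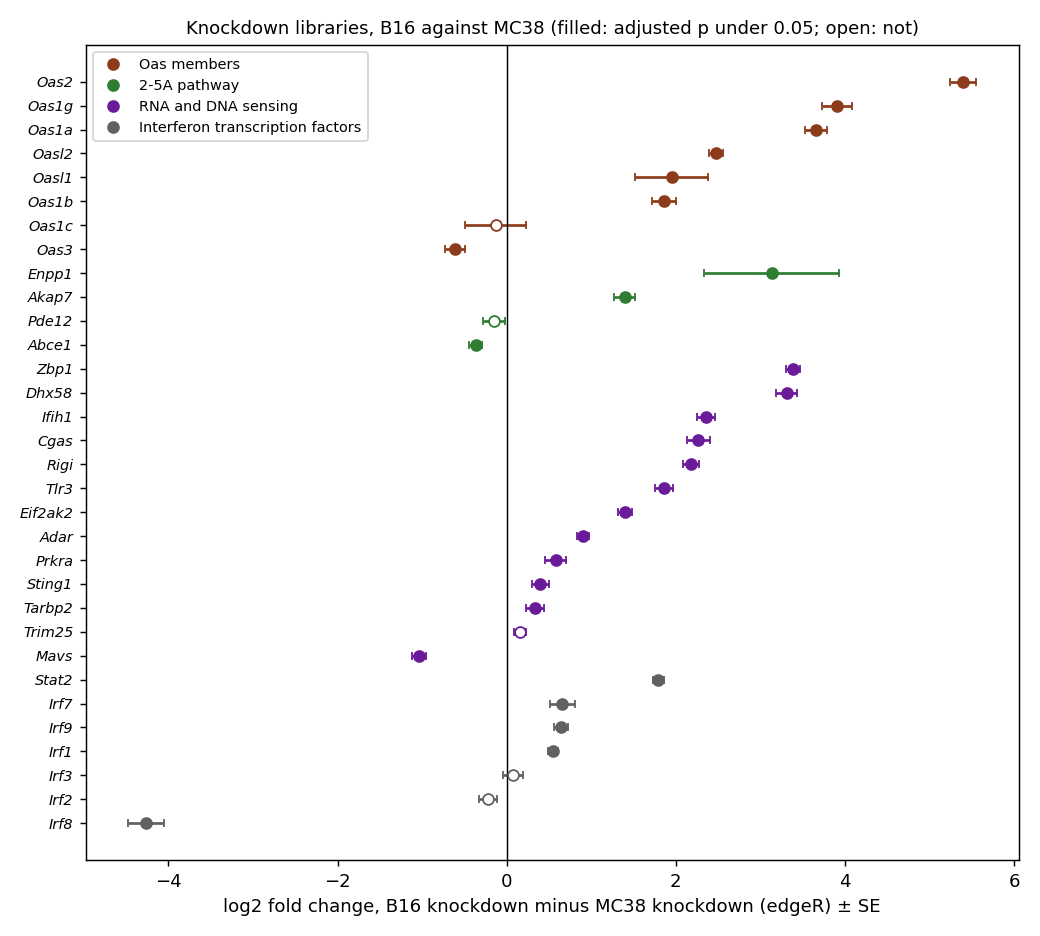
Log2 difference between the B16 and the MC38 knockdown for each Oas gene and for the genes of 3 pathway lists (points, with bars of 1 standard error, from edgeR; positive values are higher in B16). Oas2 is the farthest to the right of the Oas genes at 5.40, and Oas3 at -0.61 is the one Oas gene called lower.

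The 4 other Oas1 copies were near or at 0. Oas1d and Oas1e had at most 2 counts and Oas1f at most 1 count in any library, all under the floor of 3 counts. Oas1h had 0 to 2 counts in MC38 and 10, 11, 8 and 13 counts in B16.

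Genes around 2-5A did not pass the test in MC38. Pde12, Akap7 and Enpp1 encode enzymes that can degrade 2-5A, and Abce1 encodes a ribosome recycling factor. Of these 4 genes, 3 were tested in MC38, and edgeR, DESeq2 and limma-voom called 0 of them with c30 and 0 with ect, with 0 at an unadjusted p under 0.05 in edgeR. Over all genes, edgeR called 4.45% lower and 3.3% higher with c30, and 4.61% and 3.55% with ect. The absence of a call among 3 genes is therefore near the share over all genes. The log2 differences of these 3 genes lay between -0.15 and 0.03 with c30 and between -0.08 and 0.11 with ect. Between the lines, Akap7 was higher in B16 (log2 1.40, SE 0.13; edgeR, adjusted p = 1.2e-10), as was Enpp1 (3.14, SE 0.80; edgeR, adjusted p = 0.00111), which had at most 2 counts in any MC38 library. Abce1 was lower in B16 (-0.37, SE 0.08; edgeR, adjusted p = 0.000132). Over all genes, 33.8% were called higher in B16 and 34.3% lower, so that 2 higher and 1 lower among 4 genes is near that share.

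Among 13 genes that sense or bind double-stranded RNA or cytosolic DNA, 1 was called with c30, Zbp1, a sensor of Z-form nucleic acids (log2 -0.55, SE 0.10; edgeR, adjusted p = 7.5e-05). Over all genes, 4.45% were called lower with c30 and 3.3% higher, so that 1 call among 13 is near the share over all genes. The shares over all genes with ect were 4.61% and 3.55%. With ect, Zbp1 (-0.36, SE 0.10; edgeR, adjusted p = 0.0112) and Sting1, the adaptor of cytosolic DNA sensing (-0.30, SE 0.09; edgeR, adjusted p = 0.0177), were lower. Tarbp2, a partner of Dicer, was higher (0.26, SE 0.09; edgeR, adjusted p = 0.049), and that call was lost in most alternatives. Without replicate 2 of ect, the Zbp1 and Sting1 calls with ect were lost too (edgeR, adjusted p = 0.372 and 0.183). Eif2ak2 (PKR), Ifih1 (MDA5) and Rigi (RIG-I), sensors of viral RNA, did not pass in either comparison. In B16 against MC38, 11 of the 13 were higher, where 33.8% of all genes were called higher and 34.3% lower. The 11 were led by Zbp1 (3.39, SE 0.09; edgeR, adjusted p = 1.6e-22), Dhx58 (3.31, SE 0.13; edgeR, adjusted p = 5.2e-19) and Ifih1 (2.36, SE 0.10; edgeR, adjusted p = 1.3e-17). Mavs, the adaptor of the RNA sensors, was lower (-1.04, SE 0.08; edgeR, adjusted p = 1.2e-11).

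Of 7 interferon transcription factors, 3 were called lower with c30 and none higher, where 4.45% of all genes were called lower and 3.3% higher. Irf7, the factor that amplifies type I interferon, was at 12.7 and 13.7 CPM in the knockdown and 7.40 and 8.79 CPM with c30 (log2 -0.70, SE 0.17; edgeR, adjusted p = 0.00355). Stat2, a subunit of ISGF3, was at 141 and 143 CPM against 122 and 110 CPM (-0.29, SE 0.06; edgeR, adjusted p = 0.000161). Irf1, a direct target of IFNγ signalling, was at 440 and 451 CPM against 389 and 398 CPM (-0.17, SE 0.04; edgeR, adjusted p = 0.00538). The groups did not overlap in any of the 3, though the change of Irf1 was small. Calls were lost without replicate 1 of c30 for Irf7 (edgeR, adjusted p = 0.136) and Irf1 (0.189), and without replicate 2 for Stat2 (0.0630). Without replicate 2 of the knockdown, Irf7 was at 0.0538.

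With ect, Irf7 (-0.52, SE 0.17; edgeR, adjusted p = 0.0327) and Stat2 (-0.19, SE 0.06; edgeR, adjusted p = 0.0202) were lower. Over all genes, 4.61% were called lower with ect. Irf7 lost its call without replicate 2 of ect and without either knockdown library, and Stat2 lost it without either ect library and without replicate 2 of the knockdown. The factors not called, Irf9 among them, lay between -0.05 and 0.05 with c30 and between -0.18 and 0.14 with ect, and did not pass. None of the 7 interferon receptor and Janus kinase genes tested passed with either form. With c30, 4.45% of all genes were called lower and 3.3% higher, and with ect 3.55% were called higher. In these 4 lists together edgeR called 0 genes between c30 and ect and 0 between the B16 groups. Over all genes it called 0.299% and 0% in these 2 comparisons, so that these counts match the shares over all genes. Ifnb1, a type I interferon gene, had 0 to 4 counts in any library.

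Between the lines, 33.8% of all genes were called higher in B16 and 34.3% lower. Of the 7 factors, 4 were higher in B16, namely Stat2 (1.79), Irf7 (0.66), Irf9 (0.64) and Irf1 (0.55), all as log2 differences that passed in edgeR. Irf8, a factor best known from myeloid and lymphoid cells, was lower in B16 (-4.26, SE 0.21; edgeR, adjusted p = 2.2e-16). Of the 7 receptor and kinase genes, 5 were higher, and Ifngr1, the ligand-binding chain of the IFNγ receptor, was lower (-1.32, SE 0.11; edgeR, adjusted p = 4.6e-11), as was Jak1 (-0.17, SE 0.07; edgeR, adjusted p = 0.0197), whose call was lost without either B16 knockdown library and without replicate 2 of the MC38 knockdown.

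For the members with a mean of at least 5 CPM, the 3 genes most alike in pattern were taken by the Pearson correlation of log2 CPM, as a description. Over the 6 MC38 libraries and 10721 genes, Oas1b was most like Atp1b3 (r = 0.997), Gsdmd (0.992) and Gbp6 (0.987), and Oas3 was most like A430033K04Rik (0.997), Msln (0.990) and Samhd1 (0.990). Oasl2 was most like Rybp (0.993), Htra3 (0.989) and Ddr2 (0.989), and Oas1a was most like Copb1 (0.991), Mesd (0.987) and Nub1 (0.987). With so many genes and 6 points from 3 groups, high values are common. Over all 10 libraries, where the gap between the lines sets most of the value, Oasl2 was most like Stat2, Ifit3 and Igtp (each 0.998). Oas2 and Oas1g reached a mean of 5 CPM only through B16, as they were at most 2.40 and 2.79 CPM in MC38. Oas2 was most like Tmem40 (0.999), Auh (0.998) and Ifit1 (0.997), and Oas1a was most like Gm12250 (0.999), Mx1 (0.998) and Plch1 (0.998). Oas1b was most like C4b (0.996), Pla2g16 (0.994) and Ccdc136 (0.994), and Oas1g was most like Scpep1 (0.998), Trim62 (0.998) and Plekhg1 (0.998). For Oas3 the highest values were lower, with Utrn at 0.957 and Tpcn2 and Akap13 at 0.929 each.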

How the data were processed

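RNA libraries were sequenced from both ends, per the labels' protocols. The deposited table holds raw counts per gene for the 10 libraries, made by the authors. The submitters' processing notes name Trimmomatic, HISAT2 2.0.5, HTSeq, featureCounts, DESeq2 and the build GRCm39, without role or order. The annotation release, the strand setting and the handling of reads with several matches are not given in the sources used here. Of 60676 entries, 51884 received a symbol by Ensembl identifier.

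CPM in single libraries are counts over the library total, and exon lengths and shared stretches came from GENCODE transcripts of an older build. Genes were tested in edgeR 4.0.16 (R 4.3.3) with TMM normalization, filterByExpr and the 2-sided quasi-likelihood test, with Benjamini-Hochberg adjustment over all genes tested with a threshold of 0.05. A fit of 6 libraries served the MC38 comparisons, the B16 comparison used 4, and the line and interaction contrasts used all 10. All 8 members passed the filter in each fit. The code was tested on simulated data. Alternatives were RLE factors, other filters, DESeq2 1.42.0, limma-voom (limma 3.58.1), other sets of libraries, the replicate number as a block and each library left out. Library totals without normalization factors, and crossed B16 numbers, were added after seeing the data.

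All members are described. From each list every called gene of the 2-5A and transcription factor lists and up to 3 of the others were to be named, and other list members could be. Some genes of these lists are not reported here. The members and lists were chosen with earlier results of these data known. Floors cover counting error only.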

Additional observations from a re-analysis of the deposited data

How the results depend on the processing

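Of 712 log2 values of members recomputed under the alternatives, 663 kept direction and side of the threshold, 11 lost a call, 11 gained one and 27 changed sign. DESeq2 gave no adjusted p for 20 more and so could not call them. With c30 these were Oas1c, Oas1g, Oas2 and Oasl1. With ect, and for c30 against ect, Oas1a and Oas1b lacked it as well. In both interactions Oas1c and Oasl1 lacked it. The members called with c30 numbered 4, 2 in DESeq2 (Oas3 and Oasl2) and 3 without each single library, though not always the same 3: without replicate 2 of c30, Oas1b and Oas2 were lost and Oas1c was gained. In limma-voom 3 were called, without Oas2. With ect they numbered 2, 1 in the fit of all 10 libraries, 1 in DESeq2 and 1 to 2 without single libraries. In B16 they ranged from 0 to 3 without single libraries, in the interaction with c30 from 0 to 3 and in that with ect from 0 to 1. The cause was not tested, though fits without a library use fewer samples and filter other genes.

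Signs changed only among values that did not pass. Without single libraries, Oasl1 ranged from -0.46 to 0.038 with c30, from -1.23 to 0.71 with ect, from -0.90 to 1.04 for c30 against ect and from -0.083 to 0.20 in B16. For c30 against ect, Oas1a ranged from -0.41 to 0.088, Oas1c from -1.50 to 0.28 and Oas1g from -0.20 to 0.34, and between the lines Oas1c ranged from -0.45 to 0.12. In the interaction with ect the ranges were -0.061 to 0.42 for Oas1a, -0.062 to 0.21 for Oas1b, -0.23 to 0.31 for Oas2, -0.15 to 0.045 for Oas3, -0.63 to 1.29 for Oasl1 and -0.022 to 0.17 for Oasl2. In limma-voom, Oasl1 was at -0.11 with ect and 0.19 in that interaction.

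Over all genes, calls with c30 numbered 1165, of which 496 were higher, and ranged over the alternatives from 254 in the fit of all 10 libraries, of which 64 were higher, to 1217. Calls with ect numbered 1227 (249 to 1278), c30 against ect 45 (8 to 72), B16 0 (0 to 1295), between the lines 11504 (8791 to 12117) and in the interactions 48 (13 to 1096) and 82 (13 to 1170), with the highest B16 and interaction counts without replicate 1 of B16 wild type.

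Replicate numbers pair the libraries by label only. The correlations of deviations between same-numbered libraries were 0.03, -0.01 and 0.01 in MC38 and -0.18 in B16. With the replicate number as a block the members called numbered 4, 2, 0, 0, 7, 0 and 0 in the 7 comparisons, and no member gained or lost a call. All genes called then numbered 1189, 1252, 55, 15, 11373, 35 and 57, in place of 1165, 1227, 45, 0, 11504, 48 and 82. With B16 wild-type numbers crossed, 5 genes and no member were called. Depth limits Oas1c, Oas1g, Oas2 and Oasl1 in MC38, with at most 50 counts in a library.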
